A study of Mus musculus with 2 samples.

Results

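Motile cilium genes encode the machinery of beating cilia, and 42 of them were examined in total RNA from mouse lung at embryonic day 14.5. They are a list of symbols chosen by function (regulators of multiciliation, axonemal dyneins, dynein assembly factors, radial spoke and other axonemal genes), and all 42 were matched by gene identifier among the 43346 mouse genes of the tables. The material was whole lung of untreated embryos of strain B6NCrl, of mixed sex, sequenced as 2 libraries that the labels number as biological replicates of 1 group. The input to each library was 10 ng of RNA longer than 200 nt, to which spike-in RNA was added. The labels name a numbered pup for each library and yet give both sexes, so the number of embryos behind a library is uncertain. Dissection was on 15 July (replicate 1) and 17 July (replicate 2). The study has no other condition, so the results below are levels, the transcripts that carry them, and differences between these 2 libraries.

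A motile cilium is built on an axoneme, a ring of doublet microtubules around a central pair, in which outer and inner dynein arms slide the doublets and radial spokes relay control from the central pair. In the airway, epithelial progenitors become multiciliated cells after the coregulators Gmnc and Mcidas act with E2F factors; Foxj1 and RFX factors then switch on axonemal genes, and many centrioles form on deuterosomes. Primary cilia, which most embryonic cells carry, share the transport machinery but have no dynein arms, spokes or central pair.

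The libraries held 31940637 and 33167255 expected counts on mouse genes, an expected count being the estimated number of reads of a gene. Levels are given in TPM, a measure per transcript length that has a fixed total in every library, and a gene is called detected where both libraries reach TPM 1. Lung identity was as labelled: all 6 lung epithelium markers were detected, led by Sftpc (surfactant protein C) at 2127 and 2184 TPM, Epcam at 226 in both and Nkx2-1 at 74.4 and 76.9. Heart muscle RNA differed between the libraries, with a summed level of 421 TPM over 8 markers in replicate 1 and 29.6 in replicate 2. In bulk RNA, fewer cells of a type and less RNA per cell cannot be told apart. Molecular identifiers are not mentioned in the labels or headers, and intervals and floors below cover counting error only. A count of 0 allows up to 3 counts, or 0.0939 and 0.0905 CPM (counts scaled to the library total) in the 2 libraries.

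Detection differed by role: 4 of 6 multiciliation regulators and 4 of 4 docking and ruler proteins were detected. Among 12 dynein heavy chains 2 were, and among 4 central pair genes 0. Of the 42 members, 17 were detected (40.5%), against 58.8% of 21474 protein-coding genes, and 21 were under TPM 1 in both libraries. The other 4 members, Mcidas, Deup1, Dnah1 and Dnah2, reached TPM 1 in 1 library only. The median member had a mean of 0.9 TPM, and the median protein-coding gene 4.10 TPM. The members nearest the threshold were Tekt2, detected with 1.01 TPM in replicate 1, and Dnah1, not detected with 0.97 TPM in replicate 1. The range ran from Tppp3, at 32.4 and 34.3 TPM, to Sntn, which had 0 counts in both libraries.

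**Figure D1:**
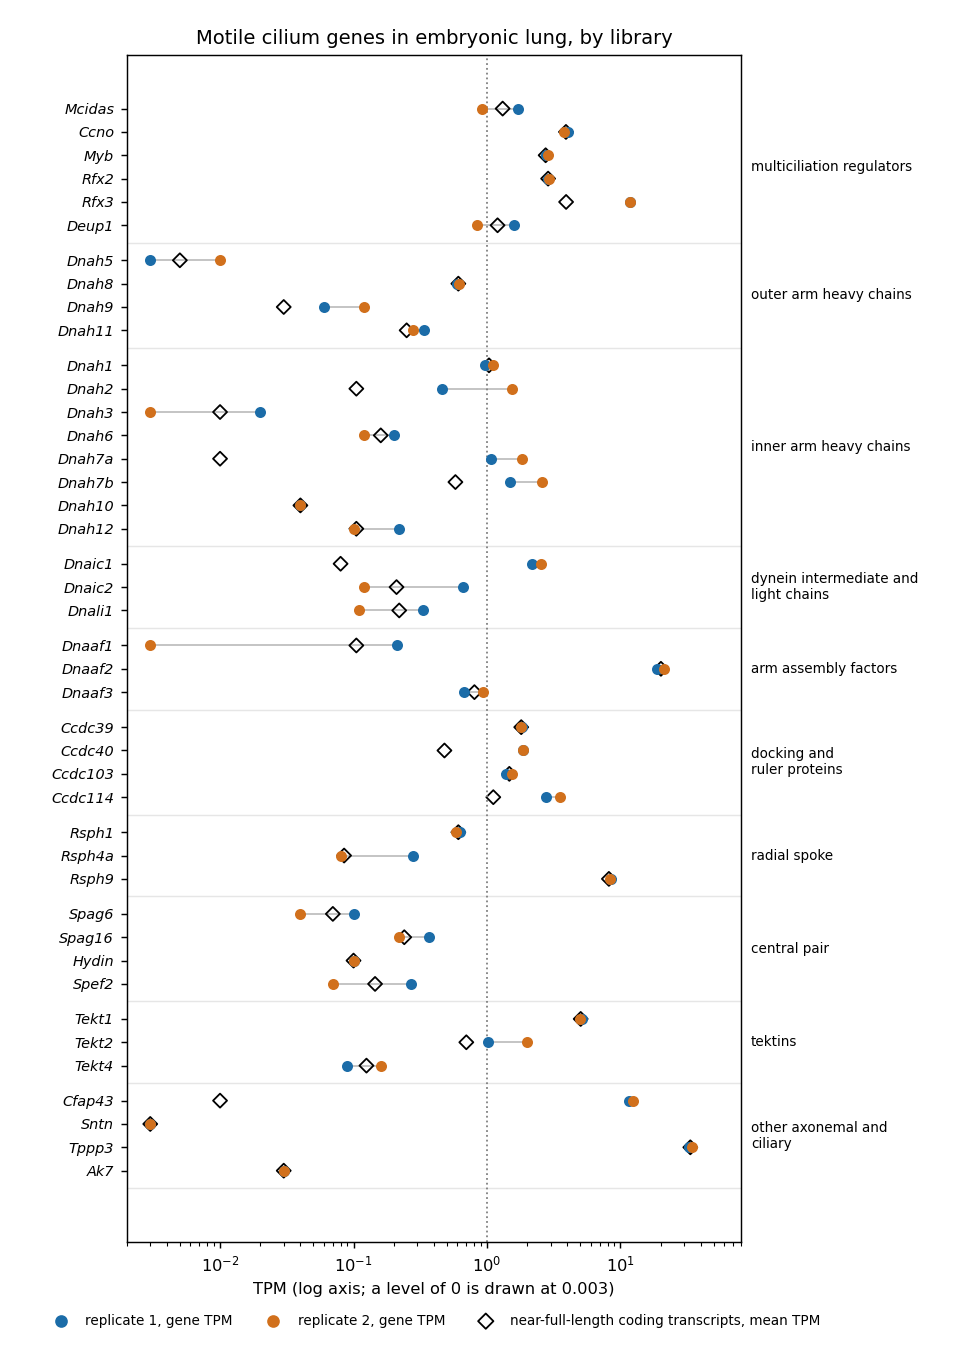
TPM of each of the 42 members (log axis) in replicate 1 (blue) and replicate 2 (orange), grouped by role, with the mean TPM on near-full-length coding transcripts as open diamonds; the dotted line marks TPM 1 and a level of 0 is drawn at 0.003. The regulators lie around or above the line, while central pair genes and most dynein heavy chains lie below it, and the diamonds of Cfap43, Dnah7a and Dnaic1 sit far to the left of their gene levels.

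Among the 6 multiciliation regulators, 4 were detected in both libraries and all 6 in replicate 1. Rfx3, a transcription factor of ciliary genes in several cell types, was highest by gene TPM, with 1271 and 1251 counts and 11.7 TPM in both libraries. On all of its protein-coding transcripts Rfx3 had 10.55 and 9.97 TPM. On near-full-length coding transcripts alone, defined below, it had 3.97 and 3.86 TPM, close to Ccno. That measure left out a 2743-nt coding model of Rfx3 with 4.24 and 4.42 TPM, because the longest has 9146 nt. Rfx2, a relative of Rfx3 that acts with Foxj1 in multiciliated cells, had 203 and 206 counts and 2.86 and 2.89 TPM. Ccno, a cyclin-like protein needed for centriole amplification, had 161 and 149 counts, or 4.06 and 3.75 TPM. These regulators had nearly the same level in the 2 libraries.

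Mcidas had 86 counts (1.71 TPM) in replicate 1 and 46 (0.91 TPM) in replicate 2. Deup1, which builds the deuterosome, had 89 counts (1.60 TPM) and 49 (0.84 TPM). Both genes thus had fewer counts in replicate 2, and the test is given with the other differences below. Ccno and Mcidas are neighbours on chromosome 13 (GRCm38): Ccno lies at 112987802 to 112990777 and Mcidas at 112993845 to 113000394, both on the plus strand and 3067 bases apart. The next gene of this multiciliation cluster, Cdc20b, begins 34716 bases beyond Mcidas and had 8 and 2 counts (0.24 and 0.06 TPM), so the neighbours were at unequal levels in TPM.

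Myb had 216 and 214 counts, or 2.78 and 2.85 TPM. It acts early in multiciliated cells and is also a factor of blood progenitors, whose RNA was present here: 10 of 12 blood progenitor and erythroid markers were detected, with Cd34 at 130 and 132 TPM and Kit at 30.03 and 34.54. Summed over the 12 markers the level was 14143 and 14383 TPM, most of it globin from Hba-a2 and Hbb-bs. None of 6 T cell markers was detected and 3 of them had 0 counts in both libraries. The part of blood cells in the Myb level was not tested.

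Outside the members, Foxj1 had 92 and 58 counts (1.63 and 1.03 TPM), and Gmnc, which acts upstream of Mcidas, had 23 and 8 counts (0.26 and 0.09 TPM). The Mcidas partners E2f4 and E2f5 and their dimer partner Tfdp1 belong to a list of 10 centriole duplication genes that also serve dividing cells. All 10 were detected; their median was 22.03 TPM, and the highest were Tfdp1 at 174 and 182 TPM, E2f4 at 75.3 and 86.5, and Plk4, the kinase that starts centriole duplication, at 57.5 and 61.4.

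RFX factors bind the X-box, and the member promoters that hold it are shown because both Rfx2 and Rfx3 were detected. RefSeq promoters on GRCm38.p6 (250 bases before to 50 after the start) were found for 37 members. The X-box was searched on both strands as GTTNCC, then any 3 bases, then GNAAC and stood in the promoters of 4 members (10.8%), against 0.936% of 27025 genes with a promoter in the table. Below are the 4 promoters' X-boxes with 15 bases to each side, on the strand of the gene, with the X-box in capitals. Where the match is on the opposite strand, the capitals show its reverse complement.
Spag16: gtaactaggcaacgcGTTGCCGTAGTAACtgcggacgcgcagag
Hydin: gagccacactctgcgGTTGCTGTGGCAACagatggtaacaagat
Dnaaf2: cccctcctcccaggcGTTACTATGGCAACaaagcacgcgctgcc
Tekt4: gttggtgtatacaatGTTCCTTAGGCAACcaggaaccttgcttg
The Spag16 match lies on the plus strand of the promoter, 103 bases before the start, in the promoter region chr1:69826720-69827019 (+). Those of Hydin and Dnaaf2 lie on the opposite strand, beginning 21 and 17 bases before the start, in chr8:110266727-110267026 (+) and chr12:69198380-69198679 (-). That of Tekt4 begins at the start itself, in chr17:25471340-25471639 (+).

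The levels of these 4 genes were far apart, although each promoter holds an X-box. Dnaaf2 had 18.9 and 21.3 TPM, while Spag16 had 0.37 and 0.22, Hydin 0.10 in both libraries, and Tekt4 0.09 and 0.16. Among 62 other motile cilium genes, 47 had a promoter in the table and 5 held the X-box (10.6%), and none of 20 primary cilium and transport genes did. The shorter motif GTTGCC was in 19 of 37 members (51.4%), in 10 of 20 primary cilium and transport genes and in 14.1% of all genes. It is part of many X-boxes, so the motifs overlap. The forkhead motif TGTTTAC, the kind that Foxj1 binds, was in 4 members (Myb, Ak7, Sntn and Cfap43), against 4.05% of all genes. A match is a description of letters in this window and not a binding site.

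Axonemal dynein heavy chains, the motor subunits, were low throughout. Of 12 heavy chains, 2 were detected by gene TPM and 0 on near-full-length coding transcripts, and the highest level on such transcripts was 1.10 TPM. A near-full-length transcript is taken here as a protein-coding one of at least 50% of the length of the gene's longest, placed in the same gene by the annotation; the measure was chosen after the values were seen. The messages are long, so a low TPM can still rest on many reads.

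The outer arm heavy chains among the members are Dnah5, Dnah8, Dnah9 and Dnah11. Dnah5 had 1 and 3 counts, and Dnah9 had 11.7 and 15.0 counts (0.06 and 0.12 TPM). Dnah8, known mainly from sperm, had more reads than any other outer arm heavy chain here, 194 and 201 counts, and 0.60 and 0.62 TPM. Dnah11 had 93.5 and 84.9 counts, or 0.34 and 0.28 TPM. It overlaps Cdca7l, a gene on the opposite strand with 52.8 and 57.3 TPM, over 642 exon bases. The labels and headers do not say whether counting used strand, so reads of the 2 genes may be mixed. Dnah8 and Dnah11 thus had more counts than Dnah9 and Dnah5, with the Dnah11 count open to such mixing, and Dnah5 was near the floor.

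Of the 8 inner arm heavy chains, Dnah1 had the highest level on near-full-length coding transcripts. It had 275 and 315 counts and 0.97 and 1.10 TPM. Its only model is a coding transcript of 12872 nt, so no other model could take its counts. Dnah6 had 55 and 34 counts (0.20 and 0.12 TPM), and Dnah12 had 31 and 8 (0.22 and 0.10 TPM). Dnah10 had 12 and 11 counts, or 0.04 TPM in both libraries. Dnah3 had 5 counts in replicate 1 and 0 in replicate 2. Dnah3 was thus close to the floor, while the Dnah10 counts were above it and spread over a 13275-nt coding transcript.

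Dnah2 had 35.1 and 66.2 counts and 0.46 and 1.53 TPM. Models without a coding product carried 82.6% and 91.4% of that TPM, and the near-full-length coding transcripts had 0.08 and 0.13 TPM. Its shortest model, of 386 nt, alone carried 0.23 and 1.07 TPM on 1.47 and 6.88 counts. A few reads on this model thus carried 49.7% of the gene's TPM in replicate 1 and 70.04% in replicate 2.

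Dnah7a and Dnah7b were the 2 heavy chains detected by gene TPM. Dnah7a had 19.9 and 26 counts and 1.08 and 1.83 TPM, of which the 732-nt processed transcript Dnah7a-202 carried 98.3% and 100%. Its coding transcript had 4.96 and 0 counts. Dnah7b had 155 and 229 counts and 1.5 and 2.57 TPM, and its coding transcript had 134 and 183 counts, or 0.49 and 0.67 TPM. Most of the Dnah7b reads were therefore on the coding transcript and most of its TPM on shorter models.

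The Dnah7 copies share part of their sequence. Both lie on chromosome 1, Dnah7a at 53397006 to 53706784 on the minus strand and Dnah7b at 46066315 to 46373546 on the plus strand. Their coding sequences of 12072 and 12204 bases (GENCODE M21) share 1496 identical 100-base stretches, which is 12.5% and 12.4% of those in each. Counting Dnah7c as well, 19.96% of the stretches of the Dnah7a transcript and 23.5% of those of Dnah7b are also in other genes. The longest identical run is 340 bases, at 3611 to 3950 of the Dnah7a coding sequence and 3743 to 4082 of that of Dnah7b. Its first 120 bases are shown, because a read of 100 bases that lies within them fits either gene:
Dnah7a and Dnah7b: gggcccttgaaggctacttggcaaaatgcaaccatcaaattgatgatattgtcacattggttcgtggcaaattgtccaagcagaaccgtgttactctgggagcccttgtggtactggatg
The files' posterior standard deviation of the gene count was 1.02 and 0.57 counts for Dnah7a and 1.84 and 1.59 for Dnah7b.

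The intermediate and light chains were sparse on full-length models. Dnaic1, an outer arm intermediate chain, was detected at 2.19 and 2.56 TPM on 31 and 38 counts. Its near-full-length transcript had 0.05 and 0.11 TPM, and most of the level was on a 500-nt coding model (1.25 and 1.49 TPM) and a 965-nt retained-intron model (0.90 and 0.95 TPM). Dnaic2, the other outer arm intermediate chain, had 32 and 7 counts (0.66 and 0.12 TPM). Dnali1, an inner arm light intermediate chain, had 15 and 5 counts (0.33 and 0.11 TPM). Both had fewer counts in replicate 2.

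The dynein arm assembly factors, which fold and preassemble the arms in the cytoplasm, were at unequal levels. Dnaaf2 had 1389 and 1567 counts, or 18.9 and 21.3 TPM. Of the 100-base stretches of its transcript, 64.6% are also in other annotated genes, 27.7% in 9330151L19Rik on the opposite strand, which had 4.34 and 4.60 TPM. The models Gm49383 and Gm49384, on the same strand, overlap it over 757 and 700 exon bases. These 2 have no rows of their own, so no counts were assigned to them. The posterior standard deviation of the Dnaaf2 count was 4.49 and 4.54 counts. Dnaaf3 had 31.9 and 44.6 counts (0.67 and 0.94 TPM). Dnaaf1 had 12.5 counts in replicate 1 and 0 in replicate 2, and it overlaps Taf1c on the opposite strand (7.38 and 9.02 TPM) over 584 exon bases.

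All 4 docking and ruler proteins were detected by gene TPM, the highest share of any role. Ccdc39, which with Ccdc40 forms the ruler that spaces the arms along the doublets, had 143 and 141 counts and 1.82 and 1.79 TPM. Of its 100-base stretches, 24.8% are also in Ttc14 on the opposite strand (9.28 and 9.90 TPM). Ccdc40 had 94 and 70 counts and 1.87 and 1.86 TPM, with 0.66 and 0.30 TPM on near-full-length coding transcripts. Ccdc103, a protein of arm attachment, had 43 and 40 counts and 1.39 and 1.55 TPM. Ccdc114, of the outer arm docking complex, had 98 and 119 counts and 2.76 and 3.54 TPM, of which near-full-length transcripts carried 1.04 and 1.19. The rest, 62.2% and 66.4% of the TPM, was on models not in GENCODE M21. One of these has 2928 nt, against 2453 nt for the longest coding model in M21 counted here. On near-full-length models the ruler and docking genes thus lay between 0.30 and 1.82 TPM.

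Radial spoke and central pair genes were mostly low. Rsph9, a spoke head protein, was the exception with 161 and 162 counts and 8.54 and 8.41 TPM. Its partners in the spoke head were lower: Rsph1 had 15 and 14 counts (0.63 and 0.59 TPM) and Rsph4a had 20 and 6 (0.28 and 0.08 TPM). No central pair gene was detected. Hydin had 36 and 35 counts on a message of 15783 bases, Spag16 had 23 and 17 counts, Spef2 had 26 and 5, and Spag6 had 5 and 2. Their TPM lay between 0.04 and 0.37 in both libraries.

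The tektins, filament proteins of the doublet wall, differed widely. Tekt1 had 148 and 144 counts and 5.11 and 4.96 TPM, all on the 1397-nt coding transcript Tekt1-203. Tekt2 had 30 and 28 counts and 1.01 and 1.98 TPM, but its near-full-length transcripts had 0.90 and 0.50 TPM. Tekt4 had 3 and 5 counts. With 1 gene at about 5 TPM and 1 near the floor, the tektins did not share a level.

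Tppp3, a tubulin polymerization promoting protein, was the highest member, with 630 and 679 counts and 33.4 ± 1.33 TPM (SD, n = 2). Cfap43, a gene of ciliary and flagellar motility, appeared next to Rfx3 with 948 and 1007 counts and 11.6 and 12.4 TPM. Of these, 941 and 1003 counts, or 98.9% and 98.8% of the TPM, were on 1 transcript that GENCODE M21 names Itprip-201 and places in the overlapping gene Itprip. The protein-coding transcripts placed in Cfap43 itself had 7.00 and 1.00 counts. The high value in the Cfap43 row is therefore a value of the Itprip transcript, and Itprip has no row of its own. Sntn, a protein of the cilium tip in mature airway cells, had 0 counts in both libraries, and Ak7, an axonemal adenylate kinase, had 2 counts in each.

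**Figure D2:**
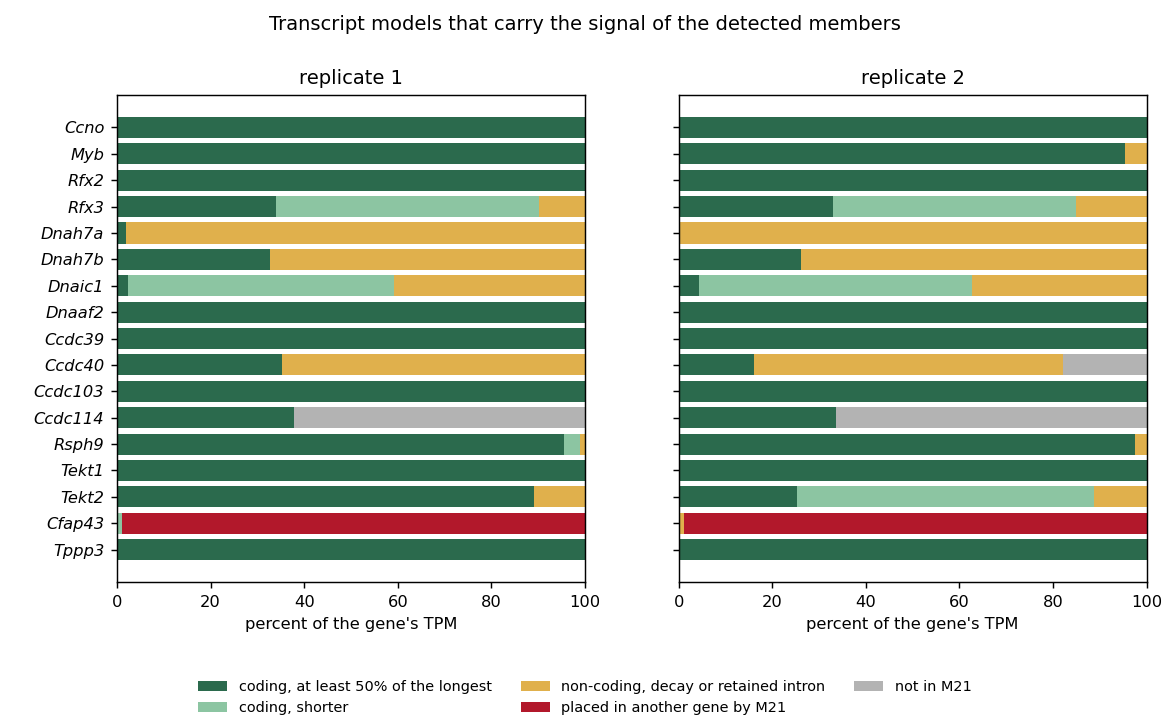
Percent of the gene's TPM on each kind of transcript model for the 17 detected members, in replicate 1 (left) and replicate 2 (right). Most members are largely dark green (coding, at least 50% of the longest), while Cfap43 is nearly all on a model placed in another gene and Dnah7a nearly all on a non-coding one.

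The transcript models thus changed which members count as detected. The 42 members had 130 transcripts in the files, of which 1 is placed in another gene by GENCODE M21 and 8 are not in it. Counting only protein-coding transcripts placed in the same gene, 12 members were detected (background 57.3%), and on near-full-length ones 11 were (background 56.4%). Those 11 were Ccno, Myb, Rfx2, Rfx3, Dnaaf2, Ccdc39, Ccdc103, Ccdc114, Rsph9, Tekt1 and Tppp3. Of these, Ccno, Dnaaf2 and Ccdc39 have 1 model each, a coding one, so for them the measures could not differ. The 6 that fell below TPM 1 in at least 1 library were Dnah7a, Dnah7b, Dnaic1, Ccdc40, Tekt2 and Cfap43. In 6 members less than 50% of the TPM was on own coding transcripts in both libraries: Dnah2, Dnah7a, Dnah7b, Ccdc40, Ccdc114 and Cfap43. For Ccdc114 the rest was on models that are not in GENCODE M21, so whether they are coding is not known here.

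Other motile cilium genes had a similar spread of levels, and the genes shared with primary cilia were higher. Of the 62 other motile cilium genes, 18 were detected, and their median was 0.585 TPM. Their 3 highest were Cfap298 at 30.6 and 32.4 TPM, Mns1 at 28.0 and 27.8, and Rsph3b at 25.1 in both. All 25 primary cilium and transport genes were detected; the median of the list was 15.5 TPM, and the highest were Ift20 at 105 and 95.7 TPM, Ift46 at 80.3 and 84.6 and Ift27 at 70.3 and 70.5. Of 15 airway ciliated cell markers 5 were detected, and the highest were the tubulins Tuba1a (1004 and 1067 TPM) and Tubb4b (466 and 492 TPM), which many cell types express. The next, Cfap126, had 1.72 and 1.63 TPM, and the median of the 15 was 0.305 TPM. Differences between the lists' levels were not tested.

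**Figure D3:**
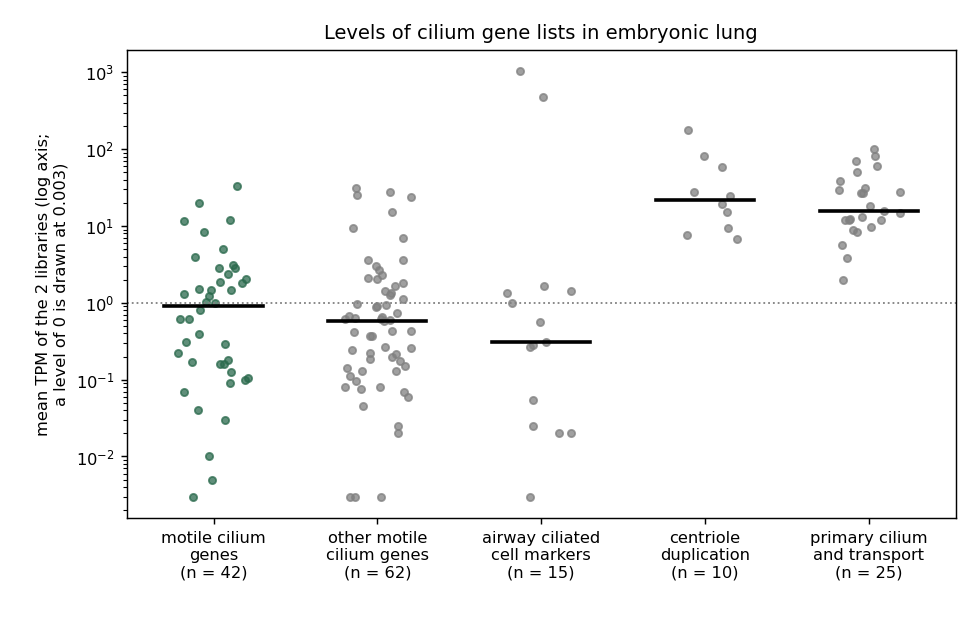
Mean TPM over the 2 libraries (log axis; 0 drawn at 0.003) of each gene in 5 lists, with the median of each list as a black bar and TPM 1 as a dotted line. The medians of the motile lists are 0.9 and 0.585 TPM and that of the airway ciliated markers 0.305, against 22.03 for centriole duplication and 15.5 for primary cilium and transport genes.

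The members called different between the 2 libraries were few and sparse, and all of those called were lower in replicate 2. Each gene's 2 rounded counts were compared with an exact two-sided binomial test over 17116 genes with a mean of 10 or more counts, and a gene was called at a Benjamini-Hochberg adjusted p under 0.05 and a 2-fold ratio. The test compares these 2 libraries only and measures counting error, so it does not compare conditions. Of 35 members tested, 4 were called lower in replicate 2, against 1.55% of all genes tested, and 0 were called higher, against 0.806%. In either direction 2.36% of all genes were called. At an unadjusted p under 0.05, 12 of the 35 members differed, near the 32.1% of all genes tested, and 26 were within 1.5-fold, against 90.2%. Ratios below divide replicate 2 by replicate 1, with 0.5 added to each count, and are given as log2; their median was -0.10 over the members and -0.00117 over all genes tested.

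Spef2, a central pair protein, had 26 counts in replicate 1 and 5 in replicate 2, a log2 ratio of -2.33 (95% exact interval -4.18 to -1.04; exact test, adjusted p = 0.00112). Dnaic2 had 32 and 7 counts, a log2 ratio of -2.18 (-3.68 to -1.05; exact test, adjusted p = 0.000496). Dnah12, an inner arm heavy chain, had 31 and 8 counts, a log2 ratio of -1.95 (-3.35 to -0.86; exact test, adjusted p = 0.00172). The longest Dnah12 coding model counted here had 7005 nt, against 12009 nt for the model of that name in GENCODE M21. Rsph4a had 20 and 6 counts, a log2 ratio of -1.72 (-3.40 to -0.43; exact test, adjusted p = 0.0292). Of the Rsph4a counts, 12.3 and 0.76 were on a model not in GENCODE M21, and 7.68 and 5.24 on the coding transcript Rsph4a-201. The 4 called members belong to 4 different structures: the central pair, the outer arm, the inner arm and the spoke head.

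With edgeR's exact test at a common dispersion (biological coefficient of variation 10.3%), 2 of these were called, Dnaic2 and Spef2, against 0.812% of all genes lower and 1.09% in either direction. There is 1 library on each side, so that dispersion was estimated from the same 2 libraries, taken as replicates of 1 group. It therefore already includes the differences that the test then compared, and no independent estimate of variation between replicates exists here. All 4 are sparse: each had under 10 counts in replicate 2, so its mean passed the count minimum only through replicate 1. Sparse genes were called more often in general. Among genes with a mean of 10 to under 50 counts, 5.88% were called lower, with 4 of the 16 members in that range and 5 of 26 other motile cilium genes.

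Mcidas, Deup1, Dnah2 and Dnah7b passed the adjusted p and not the 2-fold minimum. By the adjusted p alone, 6 of the 35 members were lower in replicate 2 and 2 higher. Among all 17116 genes tested, 1843 were lower and 1766 higher by that measure. Mcidas was 1.94-fold lower in replicate 2 (log2 ratio -0.96, interval -1.51 to -0.43; exact test, adjusted p = 0.00247) and Deup1 was 1.89-fold lower (-0.92, -1.46 to -0.40; exact test, adjusted p = 0.00318). Dnah2 had a log2 ratio of 0.84 (0.24 to 1.49; exact test, adjusted p = 0.0288) and was called higher when the libraries were scaled by spike-ins. Dnah7b had a log2 ratio of 0.50 (0.20 to 0.81; exact test, adjusted p = 0.00727). Dnali1, with 15 and 5 counts, had a log2 ratio of -1.56 (-3.46 to -0.11; exact test, adjusted p = 0.0915) and Dnah6 one of -0.75 (exact test, adjusted p = 0.0776), so neither passed.

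Several other members with 144 counts or more in each library had ratios near 0. The log2 ratio was -0.08 for Rfx3 (-0.20 to 0.03), 0.05 for Tppp3 (-0.11 to 0.21), -0.10 for Tekt1 (-0.44 to 0.24), -0.05 for Rsph9 (-0.38 to 0.27) and -0.17 for Ccno (-0.50 to 0.16). The 7 members under the count minimum, Dnah5, Dnah3, Dnaaf1, Spag6, Tekt4, Sntn and Ak7, were not tested; 32.3% of protein-coding genes were also under it.

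**Figure D4:**
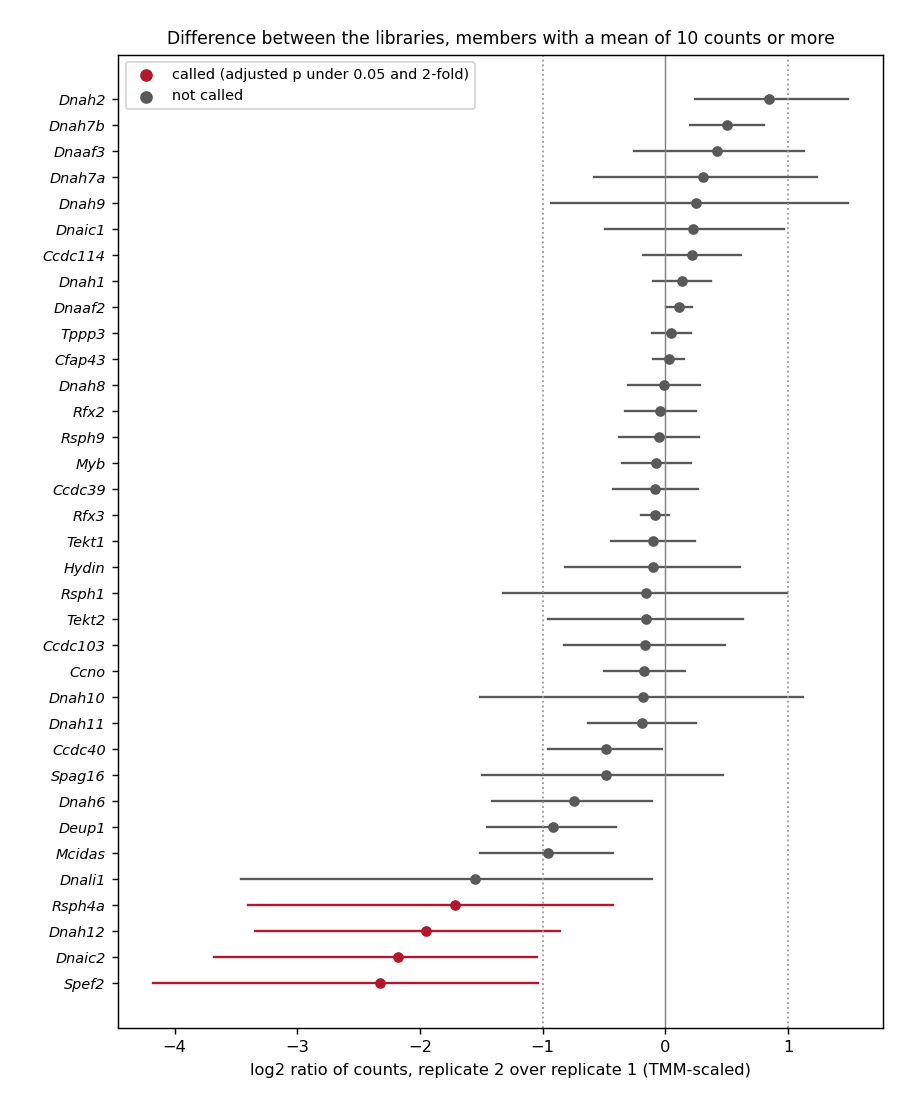
Log2 ratio of counts, replicate 2 over replicate 1 after TMM scaling, for the 35 tested members with 95% exact intervals (bars, counting error only); red marks called members and dotted lines mark a 2-fold ratio. The called members Rsph4a, Dnah12, Dnaic2 and Spef2 lie left of -1, and Mcidas and Deup1 lie just inside that line.

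Of 42 other motile cilium genes tested, 5 were called lower (background 1.55%) and 0 higher (background 0.806%). Of the 42 ratios, 24 were below 0 and 18 above, with a median of -0.06. The called genes were Cfap206 (34 and 3 counts), Trp73 (46 and 14 counts; a factor upstream of Foxj1), Enkur (20 and 6), Gmnc (23 and 8) and Ccdc65 (25 and 9). Each of these but Trp73 had under 10 counts in replicate 2, so its mean passed the count minimum only through replicate 1. Foxj1 had a log2 ratio of -0.72 (-1.23 to -0.24; exact test, adjusted p = 0.0163) and was not called. By the adjusted p alone, 8 of the 42 were lower and 3 higher in replicate 2, against 1843 lower and 1766 higher of all 17116 genes tested. The 3 higher genes were Dnal1 (227 and 348 counts), Cfap69 (77 and 128 counts) and Dnah17 (28 and 56 counts). None of 10 centriole duplication genes, 25 primary cilium and transport genes or 7 tested airway ciliated cell markers was called.

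Markers of other cells moved between the libraries too. Of 8 heart muscle markers 7 were called lower in replicate 2, among them Myl7 at 270 and 17.3 TPM, and Tnnt2 at 44.8 and 4.82. Of all genes tested, 1.55% were called lower. Tnni3 fell from 38.3 to 4.37 TPM, and Dnaaf3, which shares 86 exon bases with it, had 0.67 and 0.94 TPM. None of 8 proximal airway markers was called, with 6 tested and a summed level of 156 and 115 TPM; their median log2 ratio was -0.38. By the adjusted p alone 3 of the 6 were lower in replicate 2 and 0 higher: Scgb3a2, a secretory cell product (136 and 96.7 TPM), Cyp2f2 (9.64 and 7.53 TPM) and Trp63 (1.04 and 0.77 TPM). Of 5 mesothelium markers Msln was called lower (134 and 56 counts), and 0 of 6 lung epithelium, 0 of 12 blood and 0 of 6 neuron and glia markers were called. By the adjusted p alone, 3 of 5 mesothelium, 2 of 6 lung epithelium and 1 of 6 neuron and glia markers were lower, with 0 higher. Among the 12 blood markers 3 were lower and 2 higher. The same measure gave 1843 lower and 1766 higher of all 17116 genes tested. The part of these cell types in the members' difference was not tested.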

How the data were processed

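Total RNA of embryonic mouse lung was sequenced as 2 libraries of 1 group. Per the file headers, the authors deposited, for genes and transcripts, an expected count (an estimated number of reads, not normalized), TPM and posterior mean TPM. The deposited transcript tables add the percent of the gene's TPM on each transcript, computed by the authors per the file headers. Both deposited tables hold a posterior standard deviation of the count, a non-negative signal of assignment error per the file headers. The build is mm10 with GENCODE M4, per the deposited read-me files. Not given in the sources used here are the aligner, the quantifier and the use of strand. Effective length equalled length minus 99 nt in each of the 26303 single-transcript features that reached 100 nt, so short models gain TPM. Names and coordinates (1-based) were taken from GENCODE M21 (GRCm38, which is mm10), and promoters from RefSeq.

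Expected counts were rounded, scaled with TMM (edgeR 4.0.16, R 4.3.3) and compared with exact two-sided binomial tests, adjusted by Benjamini-Hochberg over 17116 genes with a mean of 10 or more counts; DESeq2 1.42.0 size factors, spike-in and total scaling, other filters and edgeR's exact test were alternatives. The scripts were tested on simulated data. Named genes were all members, the 3 highest of each other list, the called other motile genes, Foxj1 and Gmnc; further marker, overlapping and neighbouring genes were named after their values were seen. The members and lists were chosen with earlier results of these data known. P-values measure only the difference between these 2 libraries, from which collection day cannot be told apart.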

Additional observations from a re-analysis of the deposited data

How the results depend on the processing

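The 4 calls lower in replicate 2 held under DESeq2 size factors, spike-in scaling and total scaling, but 2 remained with edgeR's exact test (Dnaic2 and Spef2) and 0 with a mean TPM of 1 or more, a filter that removes these sparse genes from testing. Calls higher rose from 0 to 1 with spike-in scaling (Dnah2) and to 2 without a fold minimum. The median log2 ratio of the members was -0.10 and reversed to 0.24 with spike-in scaling, which moved the median of all genes tested to 0.34; the cause was not tested. The split of all calls moved with it, from 34.2% to 73.7% higher. All genes called numbered 404, against 707 with spike-in scaling, 169 at a mean TPM of 1 or more, 186 with edgeR's exact test and 3609 without a fold minimum. Detected members were 17, against 11 at TPM 2, 30 at an expected count of 10, 11 on near-full-length transcripts (a measure added after seeing the data), and 19 with either library left out. The median TPM was 0.9, against 0.53 on protein-coding and 0.245 on near-full-length transcripts, and between 0.665 and 0.875 with 1 library left out. The X-box count of 4 became 19 with GTTGCC. No paired analysis was possible because there is 1 group. A planned search of the heavy chain proteins for P-loops was not run. Depth limits the 7 members with a mean under 10 counts. With no filter all of them but Sntn, which had 0 counts, were tested. Dnaaf1 (12.5 and 0 counts) was then called lower, which makes 5 members, against 360 of 24179 genes tested in that setting.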
